A study of Mus musculus with 6 samples.

Results

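The genes described here are 9 regulators of apoptosis: the effectors Bax and Bak1, the anti-apoptotic proteins Bcl2, Bcl2l1 and Mcl1, the BH3-only proteins Bcl2l11, Bbc3 and Pmaip1, and Mdm2, the ubiquitin ligase that restrains p53. They were chosen by symbol, taking every probe set whose platform annotation gives that symbol alone. This gave 27 probe sets of 8 genes, out of 45101 probe sets and 18194 genes on the array, and no probe set was found for Bax, which is not analysed here. Of the 27 probe sets, 18 from 7 genes passed the filter on dim values (a mean log2 intensity of at least 4 over the arrays) and were tested, and 9 lay below it, among them the only one for Bbc3. The dimmest probe set inside the filter was a Bcl2 probe set with a mean log2 intensity of 4.66, and the brightest one outside was a Bcl2l11 probe set at 3.80.

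The study profiled fetal testes of mice at E13.5 on oligonucleotide arrays, with 3 Dmrt1 null and 3 control samples labelled as biological replicates, all from outcrosses with 129S6/SvEvTac mice. Dmrt1 encodes a DM-domain transcription factor of Sertoli cells and germ cells. The nulls are Dmrt1 (-/-) in their descriptions, but their genotype entry reads Dmrt(flox/flox) and names no Cre, and the controls are called wild type in the titles but Dmrt1 (+/-) in their descriptions and genotype entries. The sources used here do not say how many animals gave each sample, so p-values measure the spread between these samples. The Dmrt1 probe set was 26.4-fold lower in the null testes (limma, Benjamini-Hochberg adjusted p = 0.00388), with intensities of 23.8 to 48.4 in null testes and 696 to 1030 in control testes. Sertoli cell markers were present as the tissue label implies, with 8 of 8 listed genes above the filter. Their summed intensity was 13488 to 15078 in null testes and 15929 to 18000 in control testes, with 1 of the 8 genes called, the cystatin Cst9. In null replicate 3 the ratio of 3' to 5' signal, which rises when RNA is degraded or copied incompletely, was 2.75 for Actb and 1.87 for Gapdh, against 1.91 to 2.15 and 1.55 to 1.59 in the other 5 arrays.

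Cell death by the mitochondrial route is decided among proteins of the Bcl2 family. Bax and Bak1 form pores in the outer mitochondrial membrane and release cytochrome c, the anti-apoptotic members hold them in check, and the BH3-only proteins relieve that check when a cell lacks survival signals or has damaged DNA. Transcription of Bbc3, Pmaip1, Bax and Mdm2 is raised by p53, whose degradation Mdm2 promotes. In the fetal testis this balance sets how many germ cells survive, and in mice deletion of Bax spares germ cells that would otherwise die.

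None of the 7 genes that could be tested was called. At a limma adjusted p of 0.05, 0 of the 18 tested probe sets were called, and 1 of 18, for Mdm2, had an unadjusted p under 0.05. Over all 22082 probe sets tested, 0.0272% were called by adjusted p and 6.04% had an unadjusted p under 0.05, 3.28% in the direction of Mdm2, lower in null. The null and control groups did not overlap at 2 of the 18 probe sets, 1 higher (Bak1) and 1 lower (Mdm2), against 12.8% of all those tested, 6.73% higher and 6.06% lower, so the members were not set apart from the rest of the array by this count. The differences of null minus control lay between -0.63 (Pmaip1) and 0.18 (a Bcl2l1 probe set) on the log2 scale, with 8 higher and 10 lower. Their median was -0.05, and it was 0.01 over all probe sets tested, and the median absolute difference was 0.12 for the members and 0.12 for the array.

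**Figure D1:**
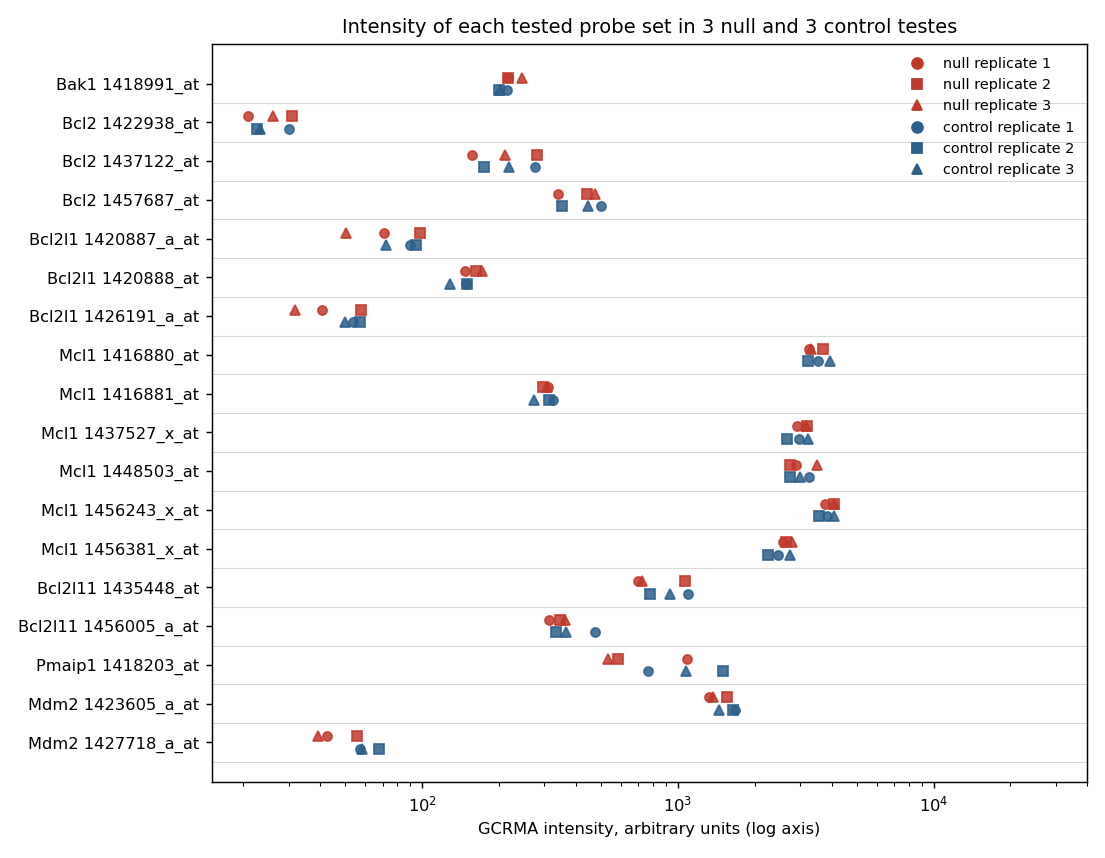
Intensity (log axis, arbitrary units) of the 18 tested probe sets, 1 point per array, with null testes in red above control testes in blue. Null and control points overlap in every row except Bak1 1418991_at and Mdm2 1427718_a_at, and the Pmaip1 points spread widest, from 532 to 1500.

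**Figure D2:**
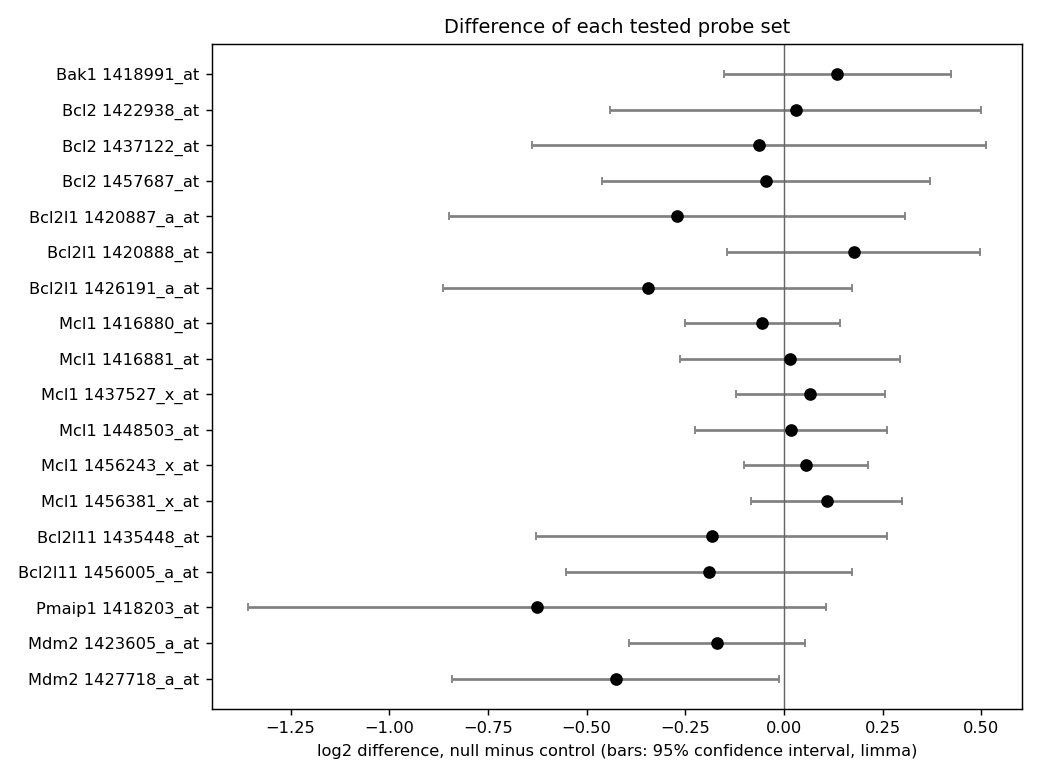
Log2 difference of null minus control for each tested probe set, with its limma 95% confidence interval as the bar. With all 6 arrays only the interval of Mdm2 1427718_a_at leaves out 0, the Mcl1 intervals are narrow, and the Pmaip1 interval is the widest, from -1.36 to 0.11.

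Among the effectors, Bak1 was measured by 1 probe set above the filter (1418991_at). Its intensity was 216, 216 and 245 in null replicates 1, 2 and 3, against 215, 199 and 202 in control replicates 1, 2 and 3. Every null testis was thus above every control testis, but the 2 lowest null values exceeded the highest control value by 1 unit, the last digit of the deposited values. Bak1 was 1.10-fold of control (95% confidence interval 0.900 to 1.34, n = 3 per group), a log2 difference of 0.13 with a standard error of 0.12 and a limma adjusted p of 0.832. Without null replicate 3, the array with the highest Bak1 value and the highest 3' to 5' ratios, the difference was 0.07. The other Bak1 probe set, near background, had intensities of 6.39 to 10.3 in null testes and 8.23 to 10.9 in control testes.

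Bcl2, the founding anti-apoptotic member, was measured by 3 probe sets above the filter, and none was called. Probe set 1437122_at gave 156, 280 and 211 in null replicates 1, 2 and 3, against 276, 174 and 219 in control replicates 1, 2 and 3. Probe set 1457687_at gave 340, 443 and 476 in null replicates 1, 2 and 3, against 501, 353 and 446 in the controls in the same order. In both probe sets null replicate 1 and control replicate 2 were the lowest arrays, so the spread ran within each genotype. The third probe set, 1422938_at, dimmer at 20.9 to 30.9 in null testes and 22.6 to 30.0 in control testes, had the same lowest arrays. The log2 differences were -0.06, -0.05 and 0.03, with limma adjusted p of 0.967 to 0.983, and each changed sign when single arrays were left out. The intervals ran from 0.726 to 1.29 of control for 1457687_at, the tightest, and from 0.643 to 1.42 for 1437122_at.

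Those 2 arrays were also low in endothelial transcripts. The median over 7 of 7 endothelial markers of log2 intensity, relative to the mean of the 6 arrays, was -0.51 in null replicate 1 and -1.11 in control replicate 2, and 0.30 to 0.43 in the other arrays. Summed endothelial marker intensity ranged from 1499 to 2772 in null testes and from 1011 to 2834 in control testes. Bcl2 probe set 1437122_at, on the same relative scale, was at -0.46 and -0.30 in the 2 arrays and between -0.02 and 0.39 in the others. The part of endothelial cells in the Bcl2 values was not tested, and in whole testes fewer cells of a type and less RNA per cell cannot be told apart.

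Bcl2l1 encodes Bcl-xL, the anti-apoptotic protein of this gene, and by alternative splicing the shorter pro-apoptotic Bcl-xS. Its 3 tested probe sets disagreed. Probe set 1420887_a_at gave 70.7, 97.8 and 50.2 in null replicates 1, 2 and 3, against 89.7, 94.3 and 72.3 in control replicates 1, 2 and 3. Probe set 1426191_a_at gave 40.4, 57.5 and 31.9 in the null replicates and 53.4, 57.3 and 49.7 in the controls. Both were lowest in null replicate 3 and both were highest in null replicate 2, so the null testes spanned the control testes. Probe set 1420888_at ran the other way, with 147, 162 and 172 in the null replicates, highest in null replicate 3, and 148, 150 and 128 in the controls.

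The log2 differences of the Bcl2l1 probe sets were -0.27 (standard error 0.25), -0.35 (0.22) and 0.18 (0.14), with limma adjusted p of 0.788 to 0.832. Over the 6 arrays the first 2 probe sets had a Pearson r of 0.97 with each other, and of -0.24 and -0.39 with 1420888_at, values described only, from 6 arrays that differ in genotype and cell makeup. Without null replicate 3, whose 3' to 5' ratios were the highest, the differences were -0.03 for 1420887_a_at and -0.15 for 1426191_a_at, and without null replicate 2 they were -0.51 and -0.57. The part of RNA quality in these values was not tested. Taken by probe set, Bcl2l1 thus had no single direction.

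Mcl1, a short-lived anti-apoptotic protein needed for the survival of many progenitor cells, held the narrowest interval of the list. All of its 6 probe sets passed the filter. Probe set 1456243_x_at gave 3760, 4090 and 4080 in null replicates 1, 2 and 3, against 3840, 3560 and 4090 in control replicates 1, 2 and 3. Null and control testes overlapped, and the probe set was 1.04-fold of control (95% confidence interval 0.932 to 1.16, n = 3 per group). The 6 differences ranged from -0.06 (1416880_at) to 0.11 (1456381_x_at) on the log2 scale, with 5 higher and 1 lower, a median of 0.04 and limma adjusted p of 0.812 to 0.986. The widest of the 6 intervals, for 1416881_at, ran from 0.833 to 1.23 of control. Probe sets whose names end in _x_at can bind related transcripts, and 3 of the 6 are of that type.

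Of the BH3-only genes, Bcl2l11 (Bim), which kills cells deprived of survival factors, was measured by 2 tested probe sets with like differences. Probe set 1435448_at gave 700, 1070 and 724 in null replicates 1, 2 and 3, against 1100, 775 and 932 in control replicates 1, 2 and 3. Probe set 1456005_a_at gave 312, 347 and 361 in the null replicates and 476, 334 and 365 in the controls. Control replicate 1 was highest in both, and the groups overlapped in both. The log2 differences were -0.18 (standard error 0.19) and -0.19 (0.16), with limma adjusted p of 0.857 and 0.821. Without control replicate 1 they were -0.06 and -0.04, and with each array left out in turn they ranged from -0.38 to -0.06 and from -0.30 to -0.04.

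Pmaip1 (Noxa), which neutralises Mcl1, had the lowest difference of the list and the most uneven levels within groups. Its intensity was 1090, 582 and 532 in null replicates 1, 2 and 3, against 765, 1500 and 1080 in control replicates 1, 2 and 3. Null replicate 1 lay above 2 of the 3 controls, so the groups overlapped. Pmaip1 was 0.648-fold of control (95% confidence interval 0.390 to 1.08, n = 3 per group), a log2 difference of -0.63 with a standard error of 0.32, an unadjusted limma p of 0.0839 and a limma adjusted p of 0.773. Leaving out null replicate 1 gave a difference of -0.95 and leaving out control replicate 1 one of -0.87, whereas leaving out null replicate 3 gave -0.43 and leaving out control replicate 2 gave -0.38. The spread of Pmaip1 within groups, a standard deviation of 0.53 on the log2 scale, exceeded that of 95.4% of all tested probe sets.

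The arrays high in Pmaip1 were also high in Leydig transcripts. Control replicate 2, the highest in Pmaip1, was also the highest in germ cell transcripts. In the other arrays high in Pmaip1 the germ cell median was close to its mean. On the scale of log2 relative to the mean of the 6 arrays, Pmaip1 was at 0.33, -0.57 and -0.70 in null replicates 1, 2 and 3 and at -0.18, 0.79 and 0.32 in control replicates 1, 2 and 3. The median of the Leydig markers was at 1.26, -0.65 and -1.40 in the null replicates and at -0.75, 0.76 and 0.78 in the controls. The median of the germ cell markers was at 0.09, -0.19 and -0.24 in the null replicates and at -0.33, 0.70 and 0.02 in the controls. In all 6 arrays Pmaip1 and both lists thus lay on the same side of their means. Of the Leydig list 4 of 6 genes passed the filter, with Insl3 and Lhcgr below it, and of the germ cell list 10 of 12, with Nanos2 and Nanos3 below it. Summed Leydig marker intensity was 3204 to 12950 in null testes and 4024 to 10320 in control testes, and that of germ cell markers 10306 to 13081 in null testes and 10452 to 17776 in control testes. The part of cell makeup in the Pmaip1 values was not tested.

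**Figure D3:**
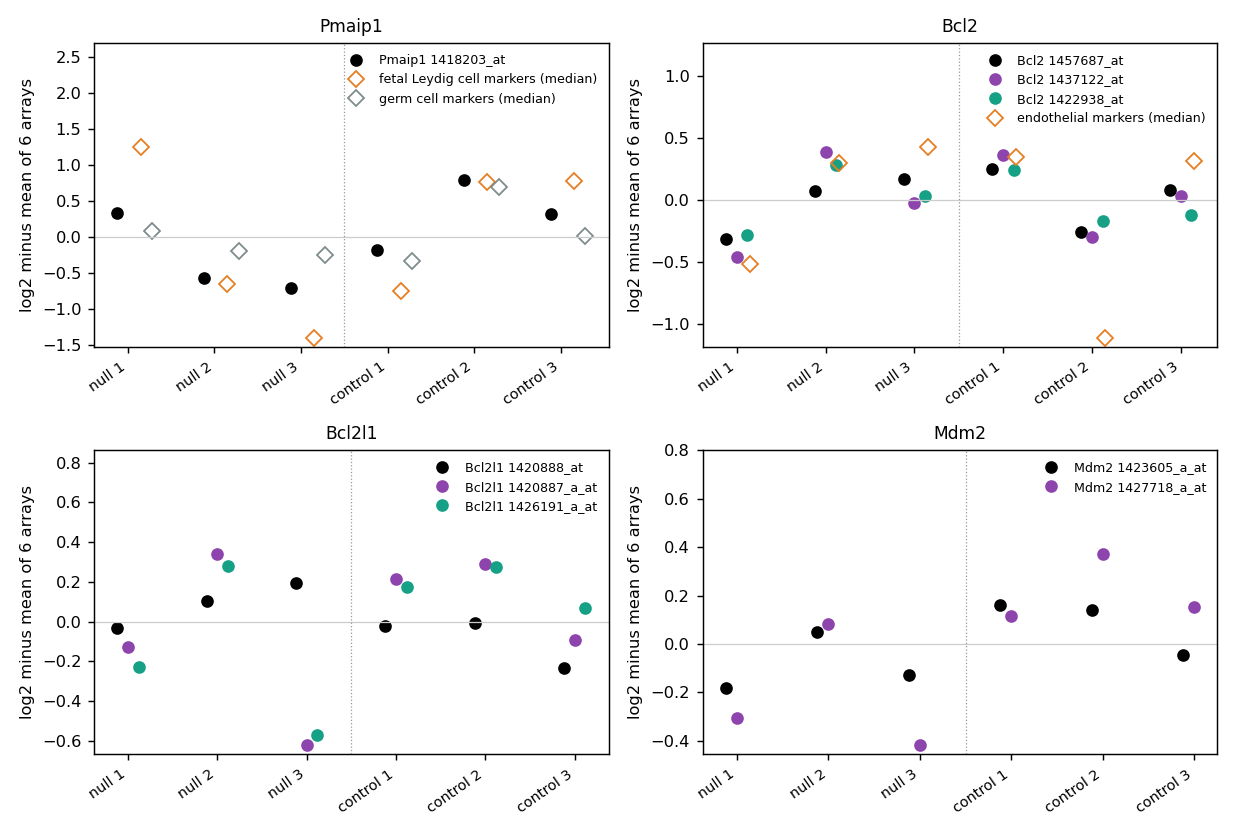
Log2 intensity relative to the mean of the 6 arrays, by array, with null testes left of the dotted line and control testes right of it, for Pmaip1, Bcl2, Bcl2l1 and Mdm2 (filled) and for medians of marker lists (open diamonds). Pmaip1 lies on the same side of 0 as the Leydig and germ cell medians in every array, Bcl2 is lowest in null replicate 1 and control replicate 2, and Bcl2l1 1420888_at is high in null replicate 3, where the other 2 Bcl2l1 probe sets are lowest.

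Bbc3 (Puma), the other BH3-only target of p53, was near background. Its intensity was 12.3, 10.2 and 10.1 in null replicates 1, 2 and 3, against 11.6, 9.03 and 9.95 in control replicates 1, 2 and 3, below the array medians of 14.6 to 14.8 in all 6 arrays. It was not tested. All 9 member probe sets below the filter had intensities of 3.20 to 18.3, differences of -0.22 to 0.19, and groups that overlapped.

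Mdm2 had the smallest p of the list. Probe set 1427718_a_at gave 42.5, 55.5 and 39.3 in null replicates 1, 2 and 3, against 56.9, 67.9 and 58.3 in control replicates 1, 2 and 3. All null testes lay below all control testes. The probe set was 0.744-fold of control (95% confidence interval 0.558 to 0.992, n = 3 per group), a log2 difference of -0.43 with a standard error of 0.18, an unadjusted limma p of 0.0451 and a limma adjusted p of 0.773, so it was not called. The unadjusted limma p was 0.0131 without null replicate 2, 0.0610 to 0.135 with any other single array left out, and 0.0685 with array weights. The lowest value was in null replicate 3, whose 3' to 5' ratios were the highest, and without it the difference was -0.33. The brighter probe set 1423605_a_at gave 1320, 1550 and 1370 in the null replicates and 1670, 1650 and 1450 in the controls, with null replicate 2 above the lowest control. On the log2 scale it differed by -0.17, with a standard error of 0.10 and a limma adjusted p of 0.774, or 0.889-fold of control (95% confidence interval 0.761 to 1.04). Array weights gave -0.06 for this probe set, the mean over both probe sets was -0.30, and the pair of arrays that share a leading number in their descriptions (null replicate 2 and control replicate 3) differed by 0.10. The 2 probe sets had a Pearson r of 0.84 over the 6 arrays, given as a description. The third Mdm2 probe set was at background, at 3.37 to 3.61 in null testes and 3.23 to 3.99 in control testes.

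The summed markers of macrophages and leukocytes, and those of Sertoli cells given above, also had groups that did not overlap. The macrophage and leukocyte median over 6 of 6 listed genes, as log2 relative to the mean of the 6 arrays, was -0.24 to -0.17 in null testes and -0.01 to 0.43 in control testes, and the summed intensity was 695 to 755 in null testes and 846 to 1258 in control testes. For the Sertoli list only the sums were apart. Its median on the same scale overlapped, at -0.14 to 0.14 in null testes and -0.11 to 0.20 in control testes. No gene of the macrophage and leukocyte list was called. The part of these cells, of Sertoli cell transcripts and of RNA quality in the Mdm2 values was not tested.

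Promoters are shown for Bak1 and Mdm2, the genes with a probe set whose groups did not overlap, as the 250 bases before the annotated start. RefSeq promoter windows were found for 8 of the 9 genes, 13 windows in all. They were searched on both strands for the consensus of a p53 half-site and for ACANTGT, a core of the DM-domain consensus that reads the same on either strand. The p53 half-site was in 2 of the 13 windows, 1 of Mdm2 and 1 of Bax, and in 7.13% of all 32851 windows of the same length. ACANTGT was in 0 of the 13 and in 6.47% of all windows. Such a match is a run of letters and does not show binding. Capitals mark the p53 half-site match, 186 bases before the Mdm2 start.
Bak1, GRCm38.p6, chr17:27028628-27028877, minus strand: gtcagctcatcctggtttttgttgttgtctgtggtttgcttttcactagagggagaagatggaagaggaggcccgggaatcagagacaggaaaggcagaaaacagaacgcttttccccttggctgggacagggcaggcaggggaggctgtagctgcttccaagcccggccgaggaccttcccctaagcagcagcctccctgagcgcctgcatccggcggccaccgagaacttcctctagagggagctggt
Mdm2, GRCm38.p6, chr10:117710759-117711008, minus strand: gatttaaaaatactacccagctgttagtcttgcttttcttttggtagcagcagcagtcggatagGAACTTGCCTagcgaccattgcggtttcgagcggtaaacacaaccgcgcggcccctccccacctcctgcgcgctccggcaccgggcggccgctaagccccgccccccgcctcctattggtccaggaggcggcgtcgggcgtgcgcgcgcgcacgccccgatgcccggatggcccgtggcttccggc

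Genes whose levels most resembled Mdm2 1427718_a_at were found by Pearson r over the 6 arrays. The nearest were Eif4a1, BC030500, Stxbp4, C5ar1 and Ubac2, with r of 0.989 to 0.998. With 6 arrays such values are common, and 89 tested probe sets had r above 0.95. Each was lower in null testes, by -0.19 (Ubac2) to -0.61 (C5ar1) on the log2 scale, and none was called. That direction follows from the choice of genes, since all null testes lay below all control testes at Mdm2 1427718_a_at. C5ar1 encodes the complement receptor of myeloid cells. Eif4a1, an RNA helicase of translation initiation, had 3450, 3970 and 3330 in null replicates 1, 2 and 3, against 4120, 4500 and 4150 in control replicates 1, 2 and 3.

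Related gene lists were compared with the same fit, by the brightest probe set of each gene. The lists were 23 regulators and targets of p53, 19 other genes of the Bcl2 family or named for binding it, 21 caspases and apoptosome genes, 9 partners at the outer mitochondrial membrane and in protein turnover, and 13 upstream survival and stress signals. No gene in any of the 5 lists was called by limma, with adjusted p of 0.773 or above, and 2 genes had an unadjusted p under 0.05, Zmat3 and Dffb, against 6.44% of all genes tested on the same basis. Over all 11874 genes tested the median difference was 0.03, with 6685 higher and 5188 lower. Groups did not overlap for Bok and Dffb, higher in null testes, and for Zmat3 and Xiap, lower. Of all genes tested on the same basis, 926 were higher and 632 lower without overlap.

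Of the p53 list 19 genes passed the filter, 3 higher and 16 lower in null testes, with a median of -0.08. Zmat3, an RNA-binding protein induced by p53, gave 244, 302 and 283 in null replicates 1, 2 and 3, against 371, 328 and 335 in control replicates 1, 2 and 3. Its groups did not overlap, with a log2 difference of -0.32, a standard error of 0.13 and a limma adjusted p of 0.773. Mdm4, which binds p53 alongside Mdm2, had a difference of -0.16 and Phlda3, a p53-induced inhibitor of Akt, one of 0.15, and both overlapped. Cdkn1a, the cell cycle inhibitor that is a main target of p53, was at -0.22 with a standard error of 0.31. Its limma adjusted p was 0.897, and a second probe set was at 0.01. Other genes counted as lower also had a higher probe set, Ccng1 (0.05), Usp7 (0.07), Sesn1 (0.05), Aen (0.08) and Tigar (0.27). Mdm4, Btg2 and Rrm2b were lower at every tested probe set, Rrm2b from -0.63 to -0.12 over its 3 probe sets. Sesn2, counted as higher, had one at -0.08. With most differences smaller than their standard errors, the 3 higher and 16 lower are counts of sign. Genes of a list are not independent.

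Other genes of the Bcl2 family had 10 members above the filter, 7 higher and 3 lower in null testes, with a median of 0.12. Bok, an effector-like relative of Bax and Bak1, gave 463, 481 and 528 in null replicates 1, 2 and 3, against 403, 424 and 419 in control replicates 1, 2 and 3. The groups did not overlap, with a log2 difference of 0.24 (standard error 0.11), an unadjusted limma p of 0.0585 and a limma adjusted p of 0.773. The BH3-only genes Bid and Bad were at 0.20 and 0.19, and the anti-apoptotic Bcl2l2 at -0.20, all with overlapping groups. A second Bid probe set was at -0.05 and a second Bad probe set at 0.23.

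Downstream of the mitochondria, 19 caspase and apoptosome genes passed the filter, 11 higher and 8 lower, with a median of 0.02. Dffb, the nuclease that cuts DNA between nucleosomes in dying cells, gave 62.3, 60.1 and 68.1 in null replicates 1, 2 and 3, against 51.1, 43.3 and 51.3 in control replicates 1, 2 and 3. Its groups did not overlap, with a log2 difference of 0.39, a standard error of 0.15 and a limma adjusted p of 0.773. Xiap gave 1860, 1770 and 1890 in the null replicates and 1940, 1910 and 1930 in the controls, also without overlap. Its difference was -0.07, with a limma adjusted p of 0.847, and lay between -0.39 and 0.19 over its 4 probe sets. Diablo, which relieves caspase inhibition, was at 0.28, and Cflar, an inhibitor of caspase 8, at -0.17, between -0.33 and 0.01 over its 4 probe sets. Casp9, the initiator caspase of the apoptosome, was at -0.11 and its adaptor Apaf1 at -0.13.

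Among the 8 mitochondrial and turnover partners above the filter 6 were higher and 2 lower, with a median of 0.03. Bag1, a cochaperone that binds Bcl2, was at 0.14, and Vdac1, a channel of the outer membrane, at 0.07, between -0.05 and 0.10 over its 4 probe sets, and the groups overlapped at the brightest probe set of each. Usp9x, a deubiquitinase that stabilises Mcl1, was measured by 7 tested probe sets. All 7 were lower in null testes, from -0.71 to -0.17 on the log2 scale. Of the 7, 5 had groups that did not overlap and an unadjusted limma p under 0.05. Over all probe sets tested, 6.06% had null testes below control testes without overlap. An unadjusted limma p under 0.05 with null lower was found in 3.28%. None of the 7 was called, with limma adjusted p of 0.773 to 0.889. The brightest, 1428193_at, gave 2070, 2560 and 2370 in null replicates 1, 2 and 3, against 2960, 2470 and 2500 in control replicates 1, 2 and 3, with a difference of -0.18. Probe set 1420922_at, with the smallest p of the 7, gave 1030, 1280 and 1150 in the null replicates and 1530, 1440 and 1430 in the controls, a difference of -0.35. The largest differences, at 1450038_s_at (-0.71) and 1450037_at (-0.54), had their lowest values in null replicate 3, 58.0 and 91.8. That array had the highest 3' to 5' ratios, whereas null replicate 1 was the lowest at 1420922_at, 1428193_at and 1428194_at. The part of RNA quality in the Usp9x values was not tested. The probe sets share their samples and are not separate tests of the gene. The Mcl1 transcript itself lay within the intervals given above.

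Of the upstream signals 12 genes passed the filter, 4 higher and 8 lower, with a median of -0.03. Kit, the receptor through which germ cells receive a survival signal, was at 0.08, with a second probe set at -0.34. Its ligand Kitl, made by Sertoli cells, was at -0.03, between -0.11 and 0.19 over its 4 probe sets. Akt1, a kinase that opposes apoptosis, was at 0.14, and Foxo1, a transcription factor that Akt holds out of the nucleus, at -0.15, between -0.34 and -0.05 over its 3 probe sets. Foxo1 probe set 1416982_at gave 382, 391 and 407 in null replicates 1, 2 and 3, against 527, 465 and 507 in control replicates 1, 2 and 3, groups that did not overlap, with an unadjusted limma p of 0.0132 and a limma adjusted p of 0.773. Atr, a kinase of the DNA damage response, was at -0.22, with a second probe set at 0.29. By the brightest probe set of each gene, limma adjusted p was 0.785 or above in this list.

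**Figure D4:**
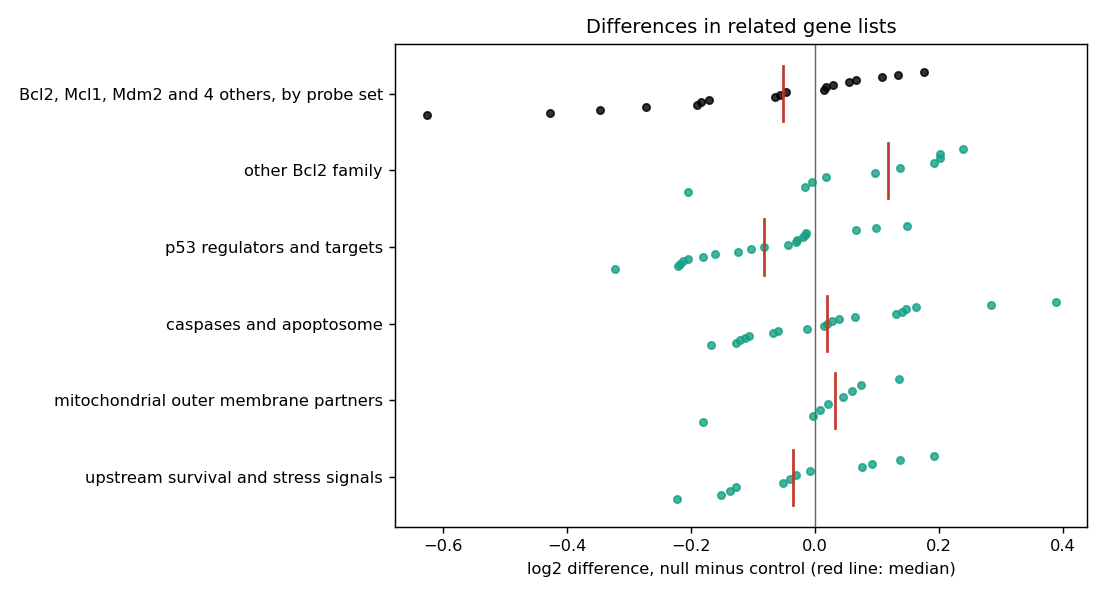
Log2 difference of null minus control for each tested member probe set (black) and for each gene of 5 related lists by its brightest probe set (green), with the median of each row as a red line. The p53 list lies mostly left of 0, with 16 of 19 genes lower, and the other Bcl2 family genes mostly right of it, with 7 of 10 higher. The extremes are -0.63 for Pmaip1 and 0.39 for Dffb.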

How the data were processed

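Gonads at E13.5 were placed in RNAlater, and total RNA was amplified with a NuGen Ovation kit, as the labels' protocols state. The deposited values are linear intensities, 1 column per array, which the authors made with GCRMA (background correction, normalization and probe set summary), per the submitters' processing notes, version not given in the sources used here. Folds of dim probe sets therefore move with the background step. Precision is limited by having 3 arrays per group. Between any 2 arrays 301 to 451 values were equal, so no array repeats another.

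Intensities were taken to log2. The 22082 probe sets with a mean of at least 4 were fitted with limma 3.58.1 in R 4.3.3 (no term besides the group, intensity-trend eBayes, two-sided, Benjamini-Hochberg over all of them, threshold 0.05), and the script was tested on simulated data. Differences are null minus control, and intervals are 95%. Probe sets were named from GEO's platform annotation, those with 1 symbol only. The genes, lists and alternatives were chosen with earlier results of these data known. So were the named genes (members, and the called or else the 3 genes of smallest p per list). Cdkn1a, Bcl2l2, Casp9, Apaf1, Xiap, Kit, Kitl, the macrophage and Sertoli sums, Usp9x 1420922_at and Foxo1 1416982_at were added after their values were seen. Also added then were the erythroid and Sertoli medians, those beside Bcl2 and Pmaip1 included, and the germ cell median set beside Bcl2. The same holds for the other probe sets given for Kit, Kitl, Xiap, Usp9x and the p53 list. Alternatives were other filters, normalizations, added constants, eBayes settings, array weights, the replicate block, single arrays left out and per-gene values.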

Additional observations from a re-analysis of the deposited data

How the results depend on the processing

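No member probe set was called under any of the alternatives run, a count of 0 by limma in each, and over those settings the members' limma adjusted p lay between 0.457 and 1.00. Of 187 member differences recomputed under the 11 settings that can move one, 172 kept their sign and 15 reversed, and the other settings leave a difference as it is. Array weights gave 0.035 for Bcl2 1437122_at and -0.00020 for Mcl1 1448503_at, and the mean over the gene's probe sets gave -0.15 for Bcl2l1, set against 1420888_at. Leaving out single arrays gave ranges that crossed 0 for Bcl2 1422938_at (-0.11 to 0.18), Bcl2 1437122_at (-0.27 to 0.15), Bcl2 1457687_at (-0.19 to 0.099) and, for Mcl1, 1416880_at (-0.12 to 0.015), 1416881_at (-0.059 to 0.065), 1437527_x_at (-0.0056 to 0.13) and 1448503_at (-0.088 to 0.091). The cause was not tested. Over all probe sets 6 were called, 1 without the intensity trend, 3 without probe sets ending in _x_at or _s_at, which could not bring in the ones removed, and 0 to 4 with single arrays left out, the 0 without control replicate 3. The replicate block gave 0 calls over all probe sets. Same-numbered arrays had correlations of their deviations from group means of -0.59, -0.34 and 0.14, so the numbers were not taken as pairs. The same correlation between null replicate 2 and control replicate 3 was -0.16. Control replicate 3 and null replicate 2 share the leading number of their descriptions, whose meaning is not given, and within that pair alone 8 of the 18 tested probe sets had the opposite sign, among them Mdm2 1423605_a_at at 0.10, Bcl2l1 1420887_a_at at 0.44 and 1426191_a_at at 0.21, Bcl2l11 1435448_at at 0.20 and Bcl2 1437122_at at 0.35, while Mdm2 1427718_a_at was at -0.07 and Pmaip1 at -0.89. Low signal limits Bbc3 and the 9 probe sets below the filter.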
